A study of Mus musculus with 2 samples.

Results

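B cells were examined in 1 of the 2 single-cell libraries of a study of CBL0137 in mice that carried 4T1 mammary tumor metastases in the liver. A barcode, the tag that marks the RNA of a single droplet, was taken as a B cell where it held at least 3 UMIs (unique molecular identifiers, each standing for 1 captured RNA molecule) of Cd79a, Cd79b and Ms4a1 together, no UMI of Cd3d, Cd3e or Cd3g, and at most 2 UMIs of C1qa, C1qb and C1qc together, and where its hashtag gave it a treatment group. Of the 4830 barcodes of the library, 235 met this rule, and the 2 libraries together held 14421 barcodes. These B cells comprised 32 from vehicle-treated mice, 36 from mice given the low dose of CBL0137 and 167 from mice given the high dose. The study's methods give a dose of CBL0137 for its tumor response experiments, but neither they nor the labels say what the low and the high dose of these groups were. The members were thus chosen by measured counts of these genes, so their levels are given as a description only.

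All mice were female BALB/c (BALB/cAnNCrl), 7 to 8 weeks old, and all had received 4T1 cells through the spleen by hemisplenectomy, so that a spleen remnant was left in place. CBL0137, a curaxin that binds DNA without cutting it, or its vehicle was infused into the hepatic artery, and leukocytes were taken 5 days later. Leukocytes of 2 mice were pooled in each group, so each group was a single sample and no spread between mice can be given. No test was therefore run between groups, and every interval given here is a 95% interval for counting error only. The study's single-cell methods describe cells isolated with CD11b beads, whereas its account of the cell clusters, B cells among them, and the labels describe leukocytes. In pooled samples, fewer B cells in a group and fewer captured B cells cannot be told apart.

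B cells carry an antibody on their surface as their antigen receptor. Cd79a and Cd79b are the signaling chains of that receptor, Ms4a1 encodes CD20, and Ighd encodes the IgD heavy chain that marks mature naive cells. B cells develop in the marrow, where precursors use the surrogate light chains Vpreb1 and Igll1 before a true light chain is made, and then pass through transitional stages in the spleen into follicular and marginal zone cells. Mature B cells present antigen on MHC class II, and receive help from T cells through CD40. They also respond to interferons. CBL0137 is known for trapping FACT, the histone chaperone made of SSRP1 and SPT16, and for favoring Z-DNA, which is sensed by ZBP1.

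Groups were told apart only by hashtag oligos, short DNA barcodes on antibodies that were given to the cells before pooling. Their sequences are shown because every comparison rests on them, with each base as deposited and all 15 bases in capitals since all of them are read.
A0301, vehicle: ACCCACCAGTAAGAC
A0305, low dose: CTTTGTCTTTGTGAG
A0310, high dose: CCGATTGTAACAGAC
Each oligo differed from each of the others in at least 10 of 15 positions. A barcode was given the group of its most abundant hashtag where that hashtag had at least 10 UMIs and at least 3 times the UMIs of the next.

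The labels and the transcripts disagreed on the tissue of the library. The labels call it spleen and name the other library liver, while the names of the deposited files have the 2 tissues the other way round, and the transcripts followed the file names. Hepatocyte transcripts were at 240 CPM (UMIs of a gene divided by all UMIs and multiplied by 1e+06) in the library labelled spleen and at 3.25 CPM in the library labelled liver. Clec4f, which marks Kupffer cells, the macrophages that live in the liver, was at 133 CPM in the former and at 0 of 72524511 UMIs in the latter, and the Kupffer cell list was at 614 against 17.4 CPM. The 2 libraries are accordingly called by their labels only. They shared 15 barcodes, and 3 of the 235 B cell barcodes were among these.

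The B cells were shallow in every group. Median UMIs per barcode were 2498.5 in vehicle (range 643 to 34452), 2600.5 at the low dose (1310 to 72145) and 2973 at the high dose (846 to 25101), and median genes per barcode were 1103.5, 1085 and 1167. Summed over barcodes, the groups held 185712, 307075 and 603039 UMIs, so that a gene with no UMI could still be present at up to 16.2, 9.77 and 4.97 CPM. The medians differed little, but the sums were unevenly spread, since the 5 deepest barcodes held 59.1% of UMIs in vehicle, 67.7% at the low dose and 14.2% at the high dose. Median mitochondrial shares were 5.41, 5.62 and 6.16%.

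A few deep barcodes met the rule with few rule UMIs for their depth. Of the 235, 9 barcodes, 4 in vehicle, 4 at the low dose and 1 at the high dose, held under 1 UMI of the 3 rule genes per 1000 UMIs. No barcode lay between 0.813 and 1.56 per 1000 in vehicle, between 0.128 and 1.84 at the low dose, or between 0.837 and 2.14 at the high dose. These 9 held 50.4, 59.0 and 4.16% of the UMIs of their groups. All 4 at the low dose had Cd79b as their only rule gene, with 356, 85, 111 and 125 UMIs of Mpo, the myeloperoxidase of granulocyte precursors. In vehicle, the first held 308 UMIs of Lyz2, the lysozyme of macrophages and neutrophils, the second held 13 UMIs of Vpreb1 and 10 of Igll1, and the fourth held 20 UMIs of Siglech, a plasmacytoid dendritic cell marker. The barcode at the high dose held 417 UMIs of Apoe. Low density did not always mean few B cell UMIs. The second vehicle barcode held 24 rule UMIs, against a vehicle median of 12.5, and 40 UMIs of Ighm. The first held 16 rule UMIs, and the barcode at the high dose held 21 against a median of 15. Results are therefore given mainly for the remaining 28, 32 and 166 barcodes, which held 92028, 125896 and 577938 UMIs and are called dense B cells, and for all B cells where stated. This second set leaves out the vehicle barcode with Vpreb1 and Igll1, which also held 20 UMIs of the proliferation gene Mki67. The set was chosen after these values were seen. Its 5 deepest barcodes per group still held 42.7% of UMIs in vehicle, 47.6% at the low dose and 11.9% at the high dose.

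**Figure D1:**
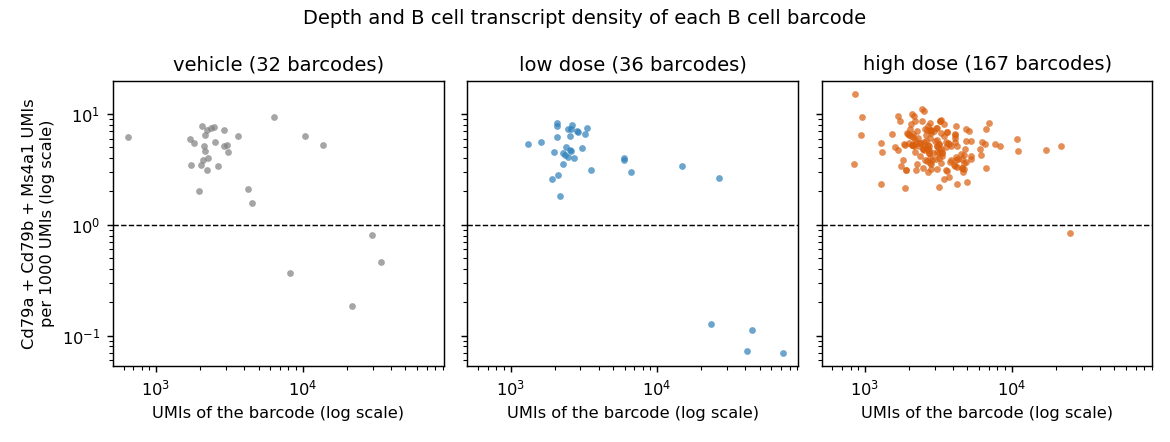
Each point is a B cell barcode of the library labelled spleen, with its UMIs on the x axis (log scale) and its UMIs of Cd79a, Cd79b and Ms4a1 per 1000 UMIs on the y axis (log scale), in a panel for each group. The dashed line marks 1 per 1000, and the 4, 4 and 1 barcodes under it are mostly the deepest of their group.

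The label of B cells held against genes that the rule did not use. Among the 235 barcodes, Ighm was detected in 96.6%, Igkc in 96.2%, Ebf1 in 93.2%, Bank1 in 84.3%, Ighd in 82.1% and Pax5 in 62.1%. Among the 4248 other barcodes with a group, the shares were 8.15% for Ighm, 2.68% for Igkc, 0.706% for Ebf1, 4.14% for Bank1, 0.565% for Ighd and 0.377% for Pax5. Ebf1 and Pax5 are the transcription factors that set B cell identity. The rule genes themselves, which chose the barcodes, were detected in 96.6% (Cd79a), 96.6% (Cd79b) and 87.2% (Ms4a1) of members. Just inside the threshold, 5 members had exactly 3 rule UMIs, with a median of 8175 UMIs per barcode. Just outside it, 27 barcodes with a group had exactly 2, with a median of 13578.

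B cells made up 32 of 820 assigned barcodes in vehicle (3.90%, exact binomial interval 2.68 to 5.46), 36 of 1318 at the low dose (2.73%, 1.92 to 3.76) and 167 of 2345 at the high dose (7.12%, 6.11 to 8.24). The high-dose interval lay above those of the other groups. With groups called by HTODemux, another hashtag caller, only 865 barcodes and 62 B cells were given to the high dose, against 822 and 33 in vehicle, and the high-dose share was 7.17% (5.54 to 9.09) against 4.01% (2.78 to 5.59), so that these intervals overlapped slightly. Median depth over all assigned barcodes was 5449, 4791.5 and 2667 UMIs, and the CD11b selection named in the methods can also set these shares; their part was not tested. The make-up of the rest of the barcodes differed between groups. Barcodes with at least 20 UMIs of the neutrophil list were 66.2% of assigned barcodes in vehicle, 67.8% at the low dose and 21.6% at the high dose, while those with at least 5 UMIs of the endothelial list were 13.7, 19.0 and 24.9%. Among barcodes with under 20 neutrophil UMIs, a denominator chosen after the data were seen, B cells were 31 of 277 in vehicle (11.2%, 7.73 to 15.5), 34 of 424 at the low dose (8.02%, 5.62 to 11.03) and 164 of 1839 at the high dose (8.92%, 7.65 to 10.3). These 3 intervals overlapped. In the library labelled liver, B cells were 14.9, 13.4 and 17.7% of assigned barcodes in the same order of groups, and 32.6, 24.4 and 20.6% of those with under 20 neutrophil UMIs.

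**Figure D2:**
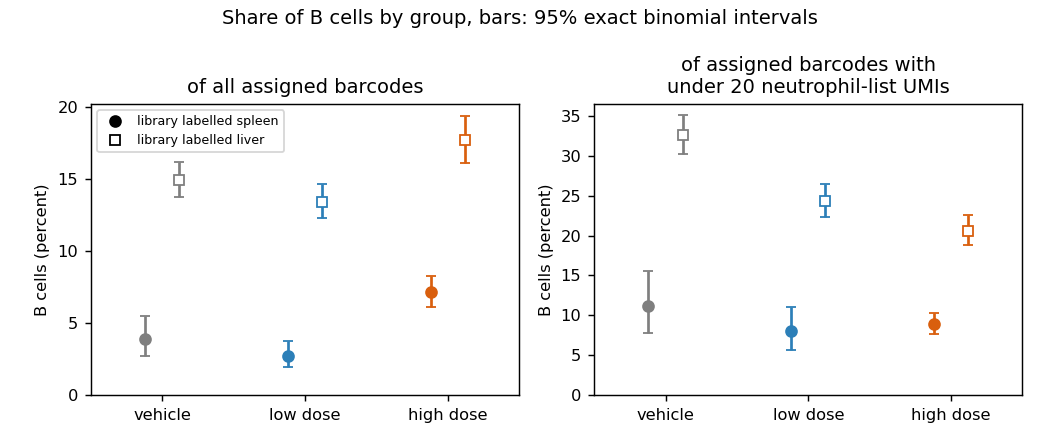
Share of B cells (percent, y axis) by treatment group (x axis) in the library labelled spleen (filled circles) and the library labelled liver (open squares), with 95% exact binomial intervals as bars. The left panel divides by all assigned barcodes, where the high dose stood highest in the library labelled spleen at 7.12%, and the right panel by those with under 20 UMIs of the neutrophil list, where it stood at 8.92% against 11.2% in vehicle.

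Genes were then compared between groups by summing UMIs over the B cells of each group. A gene counted as higher or lower where its CPM differed at least 2-fold and its counting interval left out a ratio of 1, and genes were compared where both groups together held at least 20 UMIs. At the high dose, 224 of 4703 genes were higher than in vehicle (4.76%) and 459 were lower (9.76%). The median log2 ratio of all compared genes was −0.11, and setting that median to 0 gave 294 higher and 363 lower. Among dense B cells, 59 of 3953 genes were higher (1.49%) and 126 were lower (3.19%), with a median log2 ratio of −0.03. Only 28 genes were higher and 67 lower in both sets, which is 12.5 and 14.6% of the genes called over all B cells and 47.5 and 53.2% of those called in dense B cells. Of the 224 and 459 genes called over all B cells, 19 and 144 had too few UMIs to be compared in dense B cells, and these shares count them as not called there. A further 70 genes that were lower over all B cells had a ratio above 1 in dense B cells. At the low dose, 290 of 3578 genes were higher (8.11%) and 200 lower (5.59%). Of dense B cells, 68 of 1437 genes were higher at that dose (4.73%) and 51 lower (3.55%).

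The largest changes over all B cells split into B cell genes and genes of other cells. At the high dose the 12 genes with the largest rise included Ly6a, Aqp1, Ly6d, Kdr, Cr2, Apoe, Clec4g, Trf, Cd40, Plxnc1 and Card6. Aqp1, Kdr and Clec4g are genes of liver endothelium, and among dense B cells of the high dose each was at 4 UMIs. The 12 genes with the largest fall were Klk1, Ccl5, Vpreb1, Il7r, Gzma, Igll1, Siglech, Myb, Ly6c2, Fn1, Prtn3 and Sox4. Klk1 and Siglech, of plasmacytoid dendritic cells, were at 0 UMIs in dense B cells of all 3 groups. Ccl5 and Gzma are cytotoxic lymphocyte genes, and in vehicle 65 of 66 UMIs of Ccl5 and 45 of 46 UMIs of Gzma came from a single barcode. All 66 and 46 UMIs were in dense B cells, so that set was not cleared of barcodes with transcripts of other cells. At the high dose, 3 dense barcodes held at least 2% of their UMIs in lists of other cells, and 1 of these held 14.1%.

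Of the genes that define B cells, Ly6d stood out. Ly6d, a surface protein that marks cells committed to the B lineage, had 5 UMIs in vehicle, 21 at the low dose and 164 at the high dose, all of them in dense B cells. That was 54.3, 167 and 284 CPM among dense B cells, a log2 ratio of 2.38 at the high dose (1.13 to 4.03) and of 1.62 at the low dose (0.17 to 3.38). It was detected in 3, 9 and 68 dense barcodes, so no single barcode carried the rise. Ly6d lies on chromosome 15, 74762056 to 74763620, minus strand, and Ly6a on the same chromosome and strand at 74994877 to 74998031 (build mm10). Cd40, the receptor through which T cells help B cells, had 2, 7 and 66 UMIs in dense B cells, or 21.7, 55.6 and 114 CPM, with a log2 ratio of 2.39 at the high dose (0.48 to 5.47). The vehicle count of 2 leaves that interval wide.

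Among markers of mature subsets, Cr2 passed at the high dose in both sets. It encodes CD21, the complement receptor that is highest on marginal zone cells and is also found on follicular cells. Dense B cells held 11 UMIs in vehicle, 10 at the low dose and 236 at the high dose, which was 120, 79.4 and 408 CPM. The log2 ratio at the high dose was 1.77 (0.91 to 2.79) in dense B cells and 2.73 (1.86 to 3.75) over all. The low dose gave −0.59 (−1.98 to 0.79), an interval that held no difference. Counted by barcode, 6 of 32 vehicle cells held a Cr2 UMI (18.8%, 7.21 to 36.4), as did 8 of 36 at the low dose (22.2%, 10.1 to 39.2) and 98 of 167 at the high dose (58.7%, 50.8 to 66.2). After every barcode was thinned to 1000 UMIs, which left out 1, 0 and 4 barcodes, the shares were 12.9, 16.7 and 31.9%. No Cr2 UMI was found in 423, 691 and 272 neutrophil barcodes of the 3 groups, which allows shares of up to 0.709, 0.434 and 1.10%. Neutrophil barcodes were those with at least 20 UMIs of S100a8 and S100a9 and no UMI of Cd79a, Cd79b or Ms4a1. Their median depths were 6528, 5124 and 13742 UMIs. Because barcodes with a rule gene were left out, other B cell genes were made scarce there by selection, and this absence carries no weight. Of the other marginal zone genes, Dtx1, a regulator of Notch signaling, and Notch2, the Notch receptor that marginal zone cells need, had log2 ratios of −0.03 (−1.28 to 1.51) and −0.38 (−1.67 to 1.18) in dense B cells at the high dose. Of the 8 genes in that list, 3 had enough UMIs to be compared and only Cr2 passed, where 1.49% of all genes were higher.

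Of the 22 genes of the wider identity list, 12 were higher at the high dose over all B cells, against 4.76% of all genes, and none lower, with a median log2 ratio of 1.07 against −0.11 for all genes. In dense B cells the counts were 2 higher, Ly6d and Cd40, against 1.49% of all genes, and none lower, with a median of 0.36 against −0.03. Ebf1 was at 2401, 1549 and 1412 CPM in the dense B cells of the 3 groups, a log2 ratio of −0.77 at the high dose (−0.98 to −0.55) that was −0.02 over all B cells, and Cd37, a tetraspanin of B cells, was at 989, 675 and 1144 CPM (0.21, −0.11 to 0.54). Bank1, an adaptor of the B cell receptor, was at 554, 405 and 782 CPM (0.50, 0.08 to 0.94), and Pou2f2, the B cell transcription factor OCT2, at 674, 365 and 559 CPM (−0.27, −0.67 to 0.15). Pax5 had a dense log2 ratio of 0.38 (−0.22 to 1.05). The low dose had 3 of 20 genes lower over all B cells, against 5.59% of all genes. Among dense ones 1 was higher (Ly6d) and 1 lower (Bcl11a, −1.08, −1.97 to −0.23), against 4.73 and 3.55% of all genes.

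Follicular genes also differed between the 2 sets. At the high dose 4 of 9 were higher over all B cells (median 0.89), against 4.76% of all genes, and 0 of 9 in dense B cells (median 0.00), against 1.49%. Ighd was at 334, 218 and 992 CPM over all B cells and at 674, 532 and 1023 CPM in dense B cells, with high-dose log2 ratios of 1.57 (1.19 to 1.97) and 0.60 (0.22 to 1.00). Ighd was detected in 59.4, 72.2 and 88.6% of barcodes in order of dose, but in 55.6, 40.6 and 61.1% of dense barcodes thinned to 1000 UMIs, so no order can be read from these shares. Klf2, which keeps naive lymphocytes quiescent, was at 989, 1184 and 568 CPM in dense B cells (−0.80, −1.14 to −0.45), under the 2-fold limit, and at −0.01 over all B cells. Fcer2a, the IgE receptor CD23 of follicular cells, was at 370, 135 and 240 CPM, and fell at the low dose by 1.45 on the log2 scale (interval −2.38 to −0.57).

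**Figure D3:**
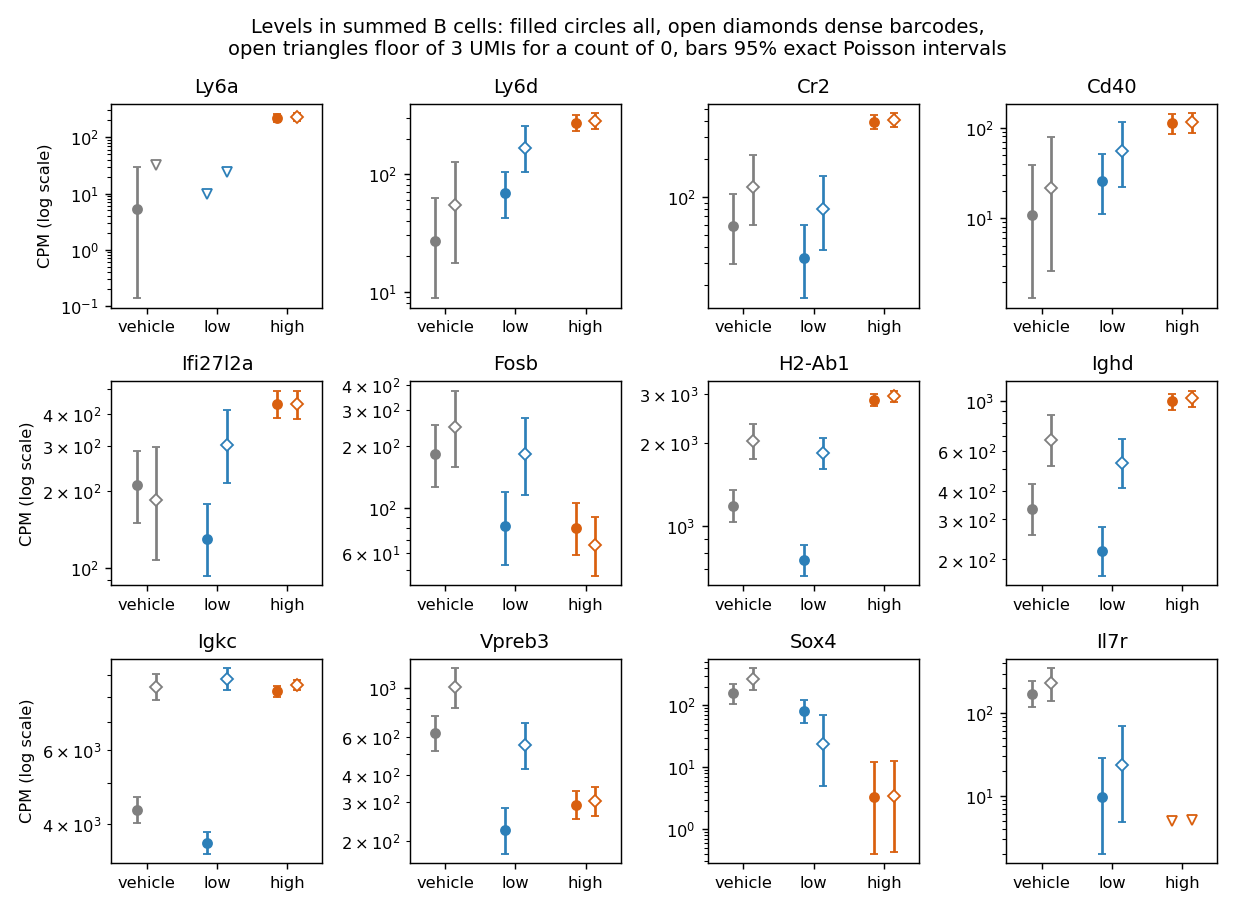
Level of 12 genes (CPM, log scale, y axis) in summed B cells of each group of the library labelled spleen (x axis), for all B cells (filled circles) and dense B cells (open diamonds). Bars are 95% exact Poisson intervals and open triangles mark the floor of 3 UMIs where the count was 0. Ly6a stood at 228 CPM in dense B cells of the high dose and at a count of 0 in the other groups, and Vpreb3, Sox4 and Il7r stood lowest at the high dose among dense B cells.

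Genes of immature and precursor B cells were lower at the high dose wherever they could be compared. The list held 12 genes, of which 7 reached 20 UMIs over all B cells and 7 were lower, and 5 reached it in dense B cells and 5 were lower. Vpreb1, Il7r and Sox4 reached that minimum through vehicle UMIs almost alone and so had to differ, and these counts therefore carry no weight of their own. Sox4, a transcription factor of early lymphocytes, had 25 UMIs in 5 dense vehicle barcodes, 3 UMIs in 1 barcode at the low dose and 2 UMIs in 2 barcodes at the high dose, although the vehicle group had the fewest barcodes. Its log2 ratio was −6.29 (−9.42 to −4.29) at the high dose and −3.51 (−5.88 to −1.80) at the low dose. Il7r, the receptor for the interleukin that precursor B cells need, had 21, 3 and 0 UMIs in 5, 2 and 0 dense barcodes. At the high dose its log2 ratio was −5.46, taken at the floor of 3 counts over the group, with an interval from −5.03 downward. Il7r is also on T cells. Of the 10 other genes of the T cell list, Trac, Trbc2, Cd4, Cd8a, Cd8b1 and Thy1 were at 0 in dense B cells of all groups, while in vehicle Lck had 3 UMIs and Trbc1, Lat and Cd5 had 1 each. Of the 5 dense vehicle barcodes with Il7r, 1 held a UMI of these other genes, and it held 4 of the 21 Il7r UMIs. Such a UMI was also found in 3 of the 23 dense vehicle barcodes without Il7r. Vpreb1 rested on a single dense vehicle barcode with 20 UMIs, and was at 0 UMIs in the treated groups.

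Vpreb3, a chaperone of the light chain that persists into transitional cells, was spread more evenly. Dense B cells held 93 UMIs in vehicle, 69 at the low dose and 176 at the high dose, or 1011, 548 and 304 CPM. These came from 16, 15 and 87 barcodes, and at most 22, 21 and 13 UMIs from any barcode. Vpreb3 fell by 1.73 on the log2 scale at the high dose (interval −2.10 to −1.35) and gave −0.88 (−1.35 to −0.42) at the low dose, where it was under the 2-fold limit. Cd24a, the heat stable antigen that is highest on immature B cells, was at 326, 437 and 158 CPM in dense B cells and fell by 1.05 at the high dose (−1.66 to −0.40). The high-dose log2 ratio over all B cells was −1.09 for Vpreb3 and −1.35 for Cd24a.

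Immunoglobulin constant genes stayed within 2-fold in dense B cells at the high dose. None of 8 was higher or lower there, against 1.49 and 3.19% of all genes, with a median log2 ratio of 0.24. Over all B cells 4 of 8 were higher, against 4.76% of all genes, with a median of 1.04. Igkc, the kappa light chain, was the most abundant at 8454, 8825 and 8553 CPM in dense B cells (high dose 0.02, −0.09 to 0.13). Ighm, the IgM heavy chain, was at 3575, 3360 and 2711 CPM (−0.40, −0.57 to −0.22). Of the lambda chains, Iglc1 and Iglc2 rose at the low dose in dense B cells, with Iglc2 at 924 and 2137 CPM in vehicle and low-dose dense B cells (1.21, 0.85 to 1.58) and Iglc1 at 446 and 1231 CPM (1.47, 0.96 to 2.0). Of the 155 low-dose UMIs of Iglc1, 83 came from a single barcode, and Iglc2 and Iglc3 are closely related copies whose reads the counting can split. Ighg1, of switched cells, had 0, 13 and 24 UMIs. Jchain, of antibody-secreting cells, was detected in 0 of 32 (up to 9.38%), 1 of 36 and 1 of 167 barcodes. At the high dose 0 of 4 compared plasma cell genes passed in either set, too few genes to weigh against the shares of all genes.

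Antigen presentation genes stayed under 2-fold in dense B cells at the high dose. Over all B cells, 6 of 10 MHC class II genes were higher at the high dose, against 4.76% of all genes, and none lower, with a median log2 ratio of 1.10 against −0.11 for all genes. Among dense B cells none reached 2-fold and the median was 0.39 against −0.03. Of the 10 genes, 9 had a ratio above 1, against 48.1% of all genes, and 5 an interval above it, against 2.93%. Their UMIs summed gave a dense log2 ratio of 0.41 (0.34 to 0.48) at the high dose and −0.16 (−0.25 to −0.07) at the low dose. Cd74, the invariant chain that guides class II molecules, was at 9943, 8809 and 13160 CPM in dense B cells, H2-Aa at 3923, 3598 and 5094 CPM and H2-Ab1 at 2032, 1835 and 2948 CPM. For H2-Ab1 the high-dose log2 ratio was 0.54 (0.32 to 0.76). MHC class I genes had none of 10 higher or lower in dense B cells at the high dose, against 1.49 and 3.19% of all genes, with a median of 0.16. H2-D1, the most abundant, was at 2434 and 2455 CPM in vehicle and the high dose (0.01, −0.19 to 0.22).

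The gene ranked first among rises, Ly6a, was on the interferon-stimulated list. Ly6a, which encodes the surface protein Sca-1 and is induced by interferons, had 132 UMIs in 30 of 166 dense barcodes at the high dose and none in the 28 vehicle and 32 low-dose dense barcodes, which allows up to 32.6 and 23.8 CPM. With vehicle set at the floor of 3 UMIs this was a log2 ratio of 2.81, with an interval from 2.49 upward. Over all B cells Ly6a had 1, 0 and 134 UMIs, a log2 ratio of 5.37 (2.86 to 10.68). The counts were uneven between high-dose barcodes: 136 of 167 held none, 12 held a single UMI, 10 held 2 to 4, and 9 held 5 or more, with a maximum of 19. Detection was in 1 of 32 vehicle barcodes (3.13%, 0.0791 to 16.2), 0 of 36 at the low dose, which allows a share of up to 8.33%, and 31 of 167 at the high dose (18.6%, 13.0 to 25.3). Thinned to 1000 UMIs, the shares were 0 of 31 and 0 of 36, which allow up to 9.68 and 8.33%, and 15 of 163 (9.20%, 5.24 to 14.7). Neutrophil barcodes of the high dose held a Ly6a UMI in 4.78% (2.57 to 8.03) at a median of 13742 UMIs, below the share in the shallower B cells, and in 1.11% (0.230 to 3.21) when thinned. Ly6a was also detected more often at the high dose outside B cells. In the other assigned barcodes it was detected in 5.33, 4.06 and 18.0% in order of dose, at a high-dose median of 2620 UMIs, and among those with under 5 UMIs of the endothelial list in 2.51, 2.51 and 9.31%. The intervals of B cells and of all other barcodes at the high dose overlapped (13.0 to 25.3 and 16.4 to 19.7). Ly6a is also abundant in endothelium, and the endothelial list summed to 196, 214 and 221 CPM in dense B cells, with Pecam1 its most abundant gene. Of its 10 genes, 4 had a UMI in vehicle, 3 at the low dose and 10 at the high dose, the group with the most UMIs. Pecam1 and Fcgr2b, which B cells also express, held 10 and 6 UMIs in vehicle, 15 and 11 at the low dose and 58 and 45 at the high dose. The remaining 8 genes had 1 to 6 UMIs each at the high dose, and Clec4g, Kdr, Ptprb, Eng and Oit3 were at 0 in the other groups. A UMI of these 8 genes was found in 4 of the 30 high-dose dense barcodes with Ly6a, which held 38 of the 132 Ly6a UMIs, and in 5 of the 136 without Ly6a.

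Ifi27l2a also passed in dense B cells. Ifi27l2a, a mitochondrial protein induced by interferon, was at 185, 302 and 434 CPM (1.23, 0.53 to 2.04), with 50 of its 251 high-dose UMIs in 1 barcode. Of the 24 interferon genes, 11 could be compared, of which 3 were higher, against 1.49% of all genes, and none lower. The median was 0.21 against −0.03 for all genes, and 8 of the 11 did not pass. Ly6a, 1 of the 3, reached the minimum of UMIs through the high dose alone, so it carries no weight in this count. Over all B cells the counts were 3 of 12 higher and 1 lower, against 4.76 and 9.76% of all genes. The lower gene was Bst2, at 162 and 36.5 CPM. Bst2 is also a plasmacytoid dendritic cell gene, and in dense B cells it was at 32.6 and 31.1 CPM. Ifi203 was at 282, 183 and 322 CPM (0.19, −0.41 to 0.84).

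Of 18 immediate early genes, which are switched on within minutes of a stimulus, 7 were lower and none higher at the high dose in dense B cells, where 3.19% of all genes were lower. These were Fos, Fosb, Egr1, Ier2, Dusp2, Zfp36 and Klf6, and the median log2 ratio of the 18 was −0.86. Btg1, an antiproliferative gene and the most abundant of the list, was at 1239 and 1305 CPM in vehicle and the high dose (0.07, −0.21 to 0.37), and Junb had a ratio of −0.12 (−0.64 to 0.44). Fosb was at 250, 183 and 65.8 CPM in dense B cells (−1.93, −2.71 to −1.11), Ier2 at 337, 222 and 132 CPM (−1.36, −1.98 to −0.70) and Egr1 at 272, 413 and 126 CPM (−1.10, −1.78 to −0.39). Fos was at 141, 421 and 64.0 CPM, lower at the high dose (−1.14, −2.09 to −0.11) and higher at the low dose (1.57, 0.68 to 2.58). Junb, at 380 and 810 CPM (1.09, 0.52 to 1.69), and Dusp1, at 43.5 and 143 CPM (1.72, 0.12 to 3.74), were also higher at the low dose. Over all B cells, 4 of 18 were lower at the high dose, against 9.76% of all genes, and 4 of 17 lower at the low dose, against 5.59%, with none higher. There the high-dose log2 ratio was −1.20 for Fosb, −1.42 for Fos and −0.79 for Egr1. Cd69, an early activation marker that keeps lymphocytes in tissue, was detected in 56.3, 58.3 and 30.5% of barcodes in order of dose, and in 25.8, 38.9 and 14.7% after thinning to 1000 UMIs. Its level in dense B cells was 261, 342 and 156 CPM (−0.74, −1.41 to −0.03), and neutrophil barcodes had a Cd69 UMI in 5.67, 2.75 and 7.72%.

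**Figure D4:**
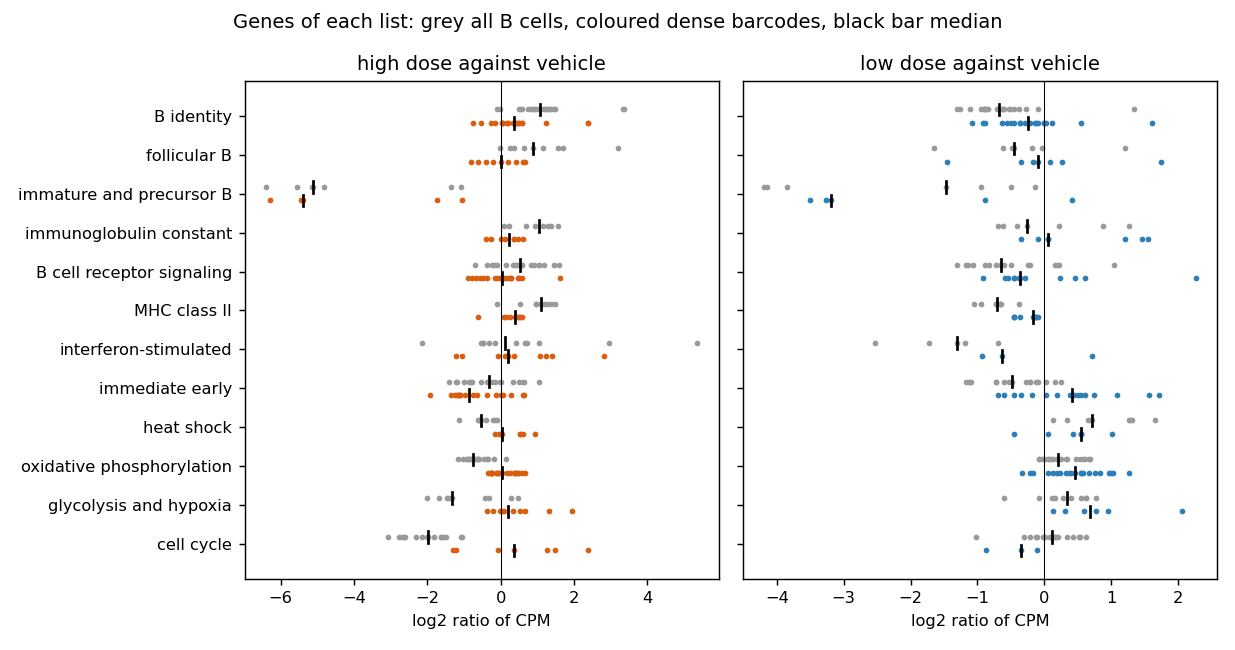
Log2 ratio of CPM (x axis) of each gene in 12 lists (y axis), high dose against vehicle on the left and low dose against vehicle on the right, in the library labelled spleen. Grey points are all B cells, colored points are dense B cells and black bars are medians. At the high dose the median of the identity list was 1.07 over all B cells and 0.36 in dense B cells, that of the cell cycle list was −1.98 and 0.35, and the few precursor genes compared, several of which had to be lower because their UMIs were almost all from vehicle, lay under 0 in both.

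Of 18 genes of B cell receptor signaling, 5 were higher over all B cells at the high dose, against 4.76% of all genes, and 1 in dense B cells, against 1.49%, where the median was 0.04. That gene was Prkcb, the kinase that links the receptor to NF-kB, at 54.3, 262 and 168 CPM, higher at the high dose (1.63, 0.36 to 3.28) and at the low dose (2.27, 0.90 to 3.98). Syk, the first kinase of the pathway, was at 380, 294 and 222 CPM in dense B cells (−0.78, −1.33 to −0.20). Prkcb had a high-dose log2 ratio of 1.59 over all B cells and Syk of −0.09. Homing genes had 1 of 15 lower at the high dose in dense B cells, against 3.19% of all genes. It was the integrin chain Itgb2, with 9 UMIs in vehicle, 4 at the low dose and 15 at the high dose. At the low dose 2 of 9 were higher in dense B cells, against 4.73% of all genes. They were Ccr7, the receptor that guides B cells toward T cell zones (54.3 and 183 CPM, 1.75, 0.32 to 3.50), and Cxcr4, which retains B cells in marrow (120 and 278 CPM, 1.22, 0.21 to 2.34).

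Survival genes did not pass in dense B cells at the high dose. Of 15 genes of the BCL2 family and BAFF receptors, 8 could be compared and none was higher or lower (median 0.06). Neither was any of the 13 NF-kB genes compared (median −0.07). Of all genes only 1.49% were higher and 3.19% lower, so counts of 0 in lists this short carry little weight. Tnfrsf13c, the receptor through which BAFF keeps mature B cells alive, was at 337, 238 and 351 CPM (0.06, −0.49 to 0.66), and Bcl2 at 304, 159 and 182 CPM (−0.74, −1.36 to −0.09, against 0.12 over all B cells). Of the 7 p53 targets compared, out of 18 listed, 1 was lower, against 3.19% of all genes. It was Trp53inp1 (152 and 51.9 CPM, −1.55, −2.51 to −0.52). Bax, which opens the mitochondrial membrane in cell death, was at 120, 175 and 95.2 CPM (−0.33, −1.28 to 0.75).

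The genes of the proteins that CBL0137 acts through were sparse in B cells. Ssrp1 had 10, 21 and 59 UMIs in dense B cells, or 109, 167 and 102 CPM, with a high-dose log2 ratio of −0.09 (−1.07 to 1.04). Supt16, which encodes SPT16, had 9, 14 and 48 UMIs (−0.24, −1.28 to 0.98). Zbp1, the Z-nucleic acid sensor, had 2, 4 and 33 UMIs, or 21.7, 31.8 and 57.1 CPM, with a ratio of 1.39 whose interval of −0.57 to 4.50 held 0. Adar, which edits and binds Z-RNA, had 2, 1 and 19 UMIs. The list held 9 genes, of which 5 could be compared and none passed, all with wide intervals. Of all genes 1.49% were higher and 3.19% lower.

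Cell cycle and glycolysis genes were lower at the high dose over all B cells, and most did not pass in dense B cells. Over all B cells, 16 of 17 cell cycle genes were lower (median −1.98) and 6 of 10 glycolysis genes were lower (median −1.34), against 9.76% of all genes, and the median of 21 oxidative phosphorylation genes was −0.75. In dense B cells only 7 cell cycle genes could be compared (median 0.35). Of these 1 was higher and 2 were lower, against 1.49 and 3.19% of all genes. The higher gene, Ube2c, reached the minimum of UMIs through the high dose alone. The 2 lower genes were Pcna and Stmn1, at −1.22 and −1.30, which were lower in both sets. The dense medians were 0.20 for glycolysis and 0.04 for oxidative phosphorylation. Mki67, the proliferation antigen, was at 221, 202 and 54.7 CPM over all B cells and at 10.9, 119 and 57.1 CPM in dense B cells. A Mki67 UMI was found in 4 of 32, 6 of 36 and 4 of 167 barcodes, and in 1 of 28, 2 of 32 and 4 of 166 dense barcodes. Pkm, a pyruvate kinase, was at 76.1, 318 and 190 CPM in dense B cells, higher at the high dose (1.32, 0.23 to 2.67) but lower over all B cells (−1.35, −1.74 to −0.95). Heat shock genes had none of 9 passing at the high dose in dense B cells (median 0.03). None of 80 cytosolic ribosomal protein genes passed there (median 0.03), and none of 13 mitochondrially encoded genes did (median 0.31), although 9 of their intervals lay above 0, against 2.93% of those of all genes.

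Transcripts of other cells were measured in the same barcodes. The neutrophil list summed to 902 CPM in dense vehicle B cells, 794 at the low dose and 2102 at the high dose, with S100a9 its most abundant gene at 446, 373 and 943 CPM. The order differed over all B cells, with the neutrophil list at 3742, 697 and 2088 CPM and the monocyte and macrophage list at 2784, 361 and 1811 CPM. S100a8, its partner, had 25, 31 and 418 dense UMIs, of which 209 at the high dose came from a single barcode, as did 274 of 545 of S100a9, so its log2 ratio of 1.41 (0.83 to 2.06) was carried in large part by that barcode; over all B cells it was −1.04. The hepatocyte list summed to 21.7, 111 and 189 CPM and the monocyte and macrophage list to 565, 445 and 846 CPM. Natural killer cell genes summed to 1663, 7.94 and 8.65 CPM, led by Ccl5. Kupffer cell genes summed to 21.7, 15.9 and 26.0 CPM, with Clec4f and Timd4 at 0. T cell genes summed to 293, 31.8 and 29.4 CPM, led by Il7r in vehicle, and plasmacytoid dendritic cell genes to 609, 620 and 763 CPM, led by Irf8, which B cells also express. Erythroid genes summed to 32.6, 55.6 and 60.6 CPM, platelet genes to 0, 47.7 and 24.2 CPM, dendritic cell genes to 0, 39.7 and 12.1 CPM and 4T1 tumor genes to 43.5, 47.7 and 60.6 CPM. The part of these transcripts in the changes of B cell genes was not tested.

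Of the B-1 list, which marks innate-like B cells, 3 of 9 genes could be compared in dense B cells at the high dose and 2 were lower, S100a6 and Ahnak, against 3.19% of all genes. Of 12 costimulation and checkpoint genes, 6 could be compared, with Cd40 higher and Cd24a lower, against 1.49 and 3.19% of all genes. A single gene of the germinal center list, Gpr183, could be compared (0.18, −0.83 to 1.37). Several genes of mixed function were lower at the high dose in both sets. S100a6, a calcium-binding protein that is also high in B-1 and memory cells, was at 1119, 326 and 182 CPM in dense B cells (−2.62, −3.03 to −2.22), but 71 of its 103 vehicle UMIs came from a single barcode. Atp1b1, a subunit of the sodium pump, had 26, 1 and 12 UMIs (−3.77, −4.89 to −2.73) and Pafah1b3, a subunit of an acetylhydrolase, had 41, 21 and 39 UMIs (−2.72, −3.39 to −2.05). Smarca4, the ATPase of a chromatin remodeling complex, had 28, 14 and 29 UMIs (−2.60, −3.40 to −1.80). Among genes that were higher, Pkib, an inhibitor of protein kinase A, had 2, 8 and 83 UMIs (2.72, 0.83 to 5.79), Setd5 had 1, 16 and 64 UMIs (3.35, 0.82 to 8.68), and Cotl1, an actin-binding protein, had 6, 23 and 176 UMIs (2.22, 1.07 to 3.69, against 0.96 over all B cells). All 3 were sparse in vehicle.

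At the low dose the largest rises over all B cells were genes of granulocyte precursors. They were Mpo, Ctsg, Ms4a3, Elane, Prtn3 and Anxa3, which had 0, 0, 1, 1, 1 and 0 UMIs in dense low-dose B cells. Mpo was at 2205 CPM over all low-dose B cells and at 5.38 CPM in vehicle. The largest falls were Gzma, Ccl5, Lyz2, Vpreb1, Klk1 and Ly6c2, none of which had more than 1 UMI in dense low-dose B cells. In dense B cells the largest rises were Eif5a, Emb, Purb, Vdac2, Iglc1 and Hmgb2. Purb, a single-strand DNA-binding protein, had 3 and 27 UMIs in vehicle and low-dose dense B cells (2.72, 1.02 to 5.08), and Vdac2, a channel of the outer mitochondrial membrane, also had 3 and 27. Eif5a, a translation factor, had 21 and 106 UMIs, with 69 in a single barcode, and Hmgb2 had 72 of 108 in a single barcode.

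The library labelled liver held 1338 B cells by the same rule, 501, 458 and 379 in the 3 groups, and its values are set beside those above for dense B cells at the high dose. Vpreb3 had a log2 ratio of −1.25 there (−1.39 to −1.11). Sox4 was at −5.32 and Il7r at −3.76, but both reached the minimum of UMIs almost only through vehicle in both libraries, with 241 and 5 UMIs of Sox4 in vehicle and the high dose of the library labelled liver, so their direction adds nothing. Ly6a had a log2 ratio of 1.68 (1.16 to 2.23) and Cr2 of 0.57 (0.42 to 0.73). Ifi27l2a, at −0.46 (−0.65 to −0.28), and S100a8, at −1.81 (−1.91 to −1.71), had log2 ratios under 0 in the library labelled liver, and the intervals of Ly6d, at −0.10 (−0.29 to 0.09), and Cd40, at −0.30 (−0.60 to 0.01), held 0. In that library 1.08% of 8926 genes were higher and 2.39% lower at the high dose in dense B cells. Of the 28 genes higher in both sets of the library labelled spleen, 16 had a ratio above 1 in the library labelled liver, against 41.4% of all genes compared there, and 1, Ly6a, was at least 2-fold higher. Of the 67 that were lower, 66 could be compared, 52 had a ratio under 1, against 58.6% of all genes, and 14 were at least 2-fold lower, of which Sox4, Il7r and Vpreb1 had to be lower as above. No label read here says whether both libraries came from the same mice.

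**Figure D5:**
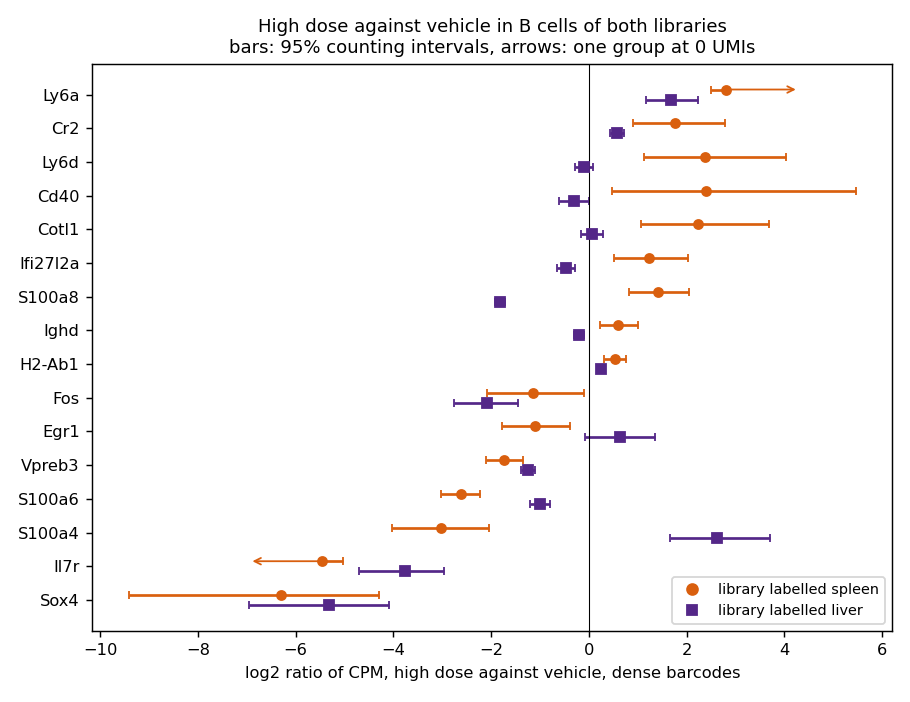
Log2 ratio of CPM, high dose against vehicle, in dense B cells (x axis) for 16 genes (y axis) in the library labelled spleen (circles) and the library labelled liver (squares), with 95% counting intervals as bars and arrows where a group had 0 UMIs. Ly6a, Cr2 and Vpreb3 lay on the same side of 0 in both libraries, Il7r and Sox4 rested almost only on vehicle UMIs in both, and Ifi27l2a, S100a8, Ighd and S100a4 on opposite sides with intervals that left out 0.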

How the data were processed

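Leukocytes of the 3 groups were tagged with hashtag antibodies, pooled and run as a single-cell library per labelled tissue. The matrices give whole-number UMI counts of every gene and hashtag in every barcode, as deposited, with no normalization by the authors. The matrix headers name Cell Ranger 5.0.0, the submitters' processing notes name version 6.0.0 with build mm10 and Seurat, and the study's methods name version 8. These versions may differ in the reads and barcodes they keep. Gene positions came from GENCODE vM21, which held 32158 of 32285 identifiers.

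The members and the 35 gene lists were chosen with earlier results of these data known. UMIs were summed over the B cells of a group and divided by the group's UMIs to give CPM. Levels have exact Poisson intervals, ratios exact conditional binomial intervals and shares Clopper-Pearson intervals, all at 95% and for counting error only. A count of 0 was set to a floor of 3 counts over the group, or of 3 barcodes for a share, in place of an interval. With 1 pooled sample per group there was no test. Named genes were the 12 with the largest rise and the 12 with the largest fall at the high dose and 6 and 6 at the low dose, ranked by the bound of the interval nearest 0, the 2 to 4 most abundant genes of each list, and the FACT, Z-nucleic acid and immunoglobulin constant genes. The same ranking was repeated in dense B cells, and other genes named were chosen after their values were seen. Barcodes with 2 hashtags were dropped by the 3-fold rule, and doublets within a hashtag were not called. On simulated counts for the high dose, 36.5% of 2-fold and 100% of 4-fold changes were called, against 2.86% of unchanged genes. The simulated counts had the depth of all B cells and no variation between barcodes or mice. These shares therefore do not carry over to dense B cells or to genes held by a few barcodes. Alternatives were a gate of 6 UMIs, a 10-fold hashtag rule, HTODemux (Seurat 5.3.0, R 4.3.3), filters on cells and UMIs, other scalings, means over cells and thinning. The dense set and the denominator without neutrophil barcodes were added after the data were seen. Intervals were computed with scipy 1.17.1 and tables with pandas 2.3.3 and numpy 2.4.6 (Python 3.11.15). A few genes are not reported here.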

Additional observations from a re-analysis of the deposited data

Results flagged for a closer look

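Of 210 ratios of named genes to vehicle in dense B cells that had UMIs in both libraries, 83 lay on opposite sides of 1. For 13 of these both counting intervals left out 1, and these differences were not tested. The log2 ratio in the library labelled spleen minus that in the library labelled liver was 3.22 for S100a8, 2.86 for S100a9, 4.31 for Wfdc17, −5.64 for S100a4, 1.7 for Ifi27l2a, 0.804 for Ighd and 0.601 for Iglc2 at the high dose. It was −10.9 for Ccl5, 2.02 for Iglc1, 2.08 for Hmgb2, 1.44 for Iglc2, 1.02 for Psmb8 and 0.898 for Jund at the low dose. In the library labelled spleen a single barcode held 209 of 418 high-dose UMIs of S100a8, 274 of 545 of S100a9, 65 of 66 vehicle UMIs of Ccl5, 83 of 155 low-dose UMIs of Iglc1 and 72 of 108 of Hmgb2.

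Another 8 barcodes met the B cell gate in the library labelled spleen but had no dominant hashtag, and were in no comparison. They held 1487 to 27090 UMIs (median 10412.5), and in all 8 the second hashtag had at least 100 UMIs.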

How the results depend on the processing

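No paired analysis was possible because each group was 1 pooled sample with no replicate number. The counts of genes past 2-fold moved most. Genes higher at the high dose were 224, and 122 without barcodes with 2% of UMIs from other cells' lists, 470 by the mean over cells, 132 with at least 50 UMIs, 10 after thinning to 1000 UMIs and 59 in dense B cells. Genes lower at the high dose were 459, and 209 with at least 50 UMIs, 774 with no filter, 44 after thinning and 126 in dense B cells. Genes higher at the low dose were 290, and 51 with a gate of 6 UMIs, 438 by the mean over cells, 131 with at least 50 UMIs, 11 after thinning and 68 in dense B cells. Genes lower at the low dose were 200, and 415 by the mean over cells, 75 with at least 50 UMIs, 405 with no filter, 10 after thinning and 51 in dense B cells. Thinning left fewer UMIs, and a higher minimum fewer genes. For the other moves the cause was not tested.

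The B cell share at the high dose was 10.9% after a filter on cells, and the 3 shares were 11.2, 8.02 and 8.92% among barcodes with under 20 neutrophil UMIs. The shares with a UMI fell with thinning, which leaves fewer UMIs per barcode. For Ighd they were 31.2% in vehicle at 500 UMIs, 36.1 and 25.0% at the low dose at 1000 and 500 UMIs, and 61.3 and 44.9% at the high dose. For Cr2 at the high dose they were 31.9 and 18.0%. For Cd69 they were 25.8 and 12.5% in vehicle, 38.9 and 22.2% at the low dose and 14.7 and 7.78% at the high dose. For Mki67 they were 3.23% in vehicle at 1000 UMIs, and 2.78% at both depths at the low dose, against 6.25% in dense B cells. For Jchain they were 0 at both depths in the treated groups.

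Some genes changed sign against all B cells. In dense B cells the high-dose log2 ratio was 1.21 for Lyz2, 1.49 for Ube2c, 1.41 for S100a8, 0.615 for Eif5a, 0.302 for Hmgb2, −0.00168 for Cd55, 1.26 for Top2a, 0.0862 for Ldha, 1.32 for Pkm, 0.0217 for Pgam1 and 0.671 for Retnlg, and the low-dose ratio of Jun was 0.0294. By the mean over cells the high-dose ratio was −0.0461 for Kdr, −0.183 for Clec4g, 0.405 for S100a8, 0.224 for Pkm, −0.977 for Fcgr2b and −0.00217 for Ighg1, and the low-dose ratio of Wfdc17 was 0.445. Thinning gave 0.0879 for S100a8, −0.269 for Cd55, 0.394 for Gapdh and 0.56 for Pkm at the high dose and 0.337 for S100a9 at the low dose. The gate of 6 UMIs gave −5.22 for Prtn3, 0.191 for Blnk and 0.0933 for Jun at the low dose. Without barcodes with 2% of other cells' UMIs, S100a8 was at 0.198 at the high dose and Lyz2 at 0.483 at the low dose. No named gene changed sign under HTODemux groups, the 10-fold hashtag rule, the filters on cells or UMIs, centering, or CPM without immunoglobulin and the top 20 genes. A kept sign is not a kept size. Under HTODemux groups, with 62 B cells at the high dose in place of 167, 31 ratios of named genes moved and 223 did not.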
